A study of Caenorhabditis elegans with 2 samples.

Results

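Autosomal peaks at a single promoter were the optimal IDR peaks (irreproducible discovery rate, a comparison of replicate peak ranks) that lay on chromosomes other than X and had only 1 protein-coding gene start nearby. The summit had to lie between 1000 bp upstream and 200 bp past a transcript start of exactly 1 protein-coding gene in the WBcel235 (ce11) annotation. Of 2103 IDR peaks, 607 (28.9%) met this rule, which was 38.2% of the 1589 autosomal ones. They lay at 553 genes, of which 503 had 1 such peak, 46 had 2 and 4 had 3.

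The peaks came from ChIP-seq, the sequencing of DNA fragments precipitated with a protein, in whole *Caenorhabditis elegans* L2 larvae in 2 biological replicates of 1 group. The animals were of strain OP355, carried the allele unc-119(tm4063) III and the integrated transgene wgIs355, were of mixed sex, and had no stated age beyond the stage. The target was an eGFP fusion, which the labels call mdl-1 in some fields and ZK337.2 (klu-1 in the annotation) in another, and the disagreement could not be resolved here. The whole animal was sampled, so a peak gives no cell type, the tagged protein came from a transgene, and no control library was used here. Neither mdl-1, on chromosome X, nor klu-1 had a peak of this class, and read depth is unknown for both replicates.

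In *C. elegans*, MDL-1 is a basic helix-loop-helix leucine zipper protein related to vertebrate Mad. It pairs with the Max-like protein MXL-1, and dimers of this family bind the E-box CACGTG near gene starts. Many worm transcripts are trans-spliced to a leader RNA, so that an annotated start may be a splice site some distance downstream of the place where transcription begins.

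The E-box was shown first because it is the sequence that the Mad family is known to bind, a reason that rests on the mdl-1 label alone. The 4 stretches that follow are the 101 bases around the summit of the intergenic peaks of highest pooled signal with CACGTG on chromosomes II to V and over 50 bp upstream of the start, taken from the RefSeq WBcel235 genome on the strand of the gene. Capitals mark CACGTG, which reads alike on both strands. The stretches were F56C9.10 at chrIII:7335374-7335474 (minus strand), adh-1 at chrV:11888101-11888201 (plus strand), Y54G11A.7 at chrII:14296515-14296615 (plus strand) and acer-1 at chrII:6891346-6891446 (minus strand).
F56C9.10: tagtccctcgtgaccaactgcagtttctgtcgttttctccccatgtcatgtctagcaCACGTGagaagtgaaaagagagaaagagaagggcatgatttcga
adh-1: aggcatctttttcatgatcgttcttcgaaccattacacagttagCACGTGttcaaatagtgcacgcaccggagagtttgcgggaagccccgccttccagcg
Y54G11A.7: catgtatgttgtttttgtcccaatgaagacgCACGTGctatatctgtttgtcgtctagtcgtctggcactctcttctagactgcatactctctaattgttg
acer-1: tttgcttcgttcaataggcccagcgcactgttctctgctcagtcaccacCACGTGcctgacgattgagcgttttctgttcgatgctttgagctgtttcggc

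The next 3 stretches are intergenic peaks of higher signal on the same chromosomes that held no CACGTG, shown because they carry the other words that recurred at these summits. In cbp-1, at chrIII:9765603-9765703 on the plus strand, capitals mark GAGAGA on the opposite strand. In C09E9.1, at chrIV:1274730-1274830 (plus strand), and hlh-11, at chrIII:9619171-9619271 (plus strand), capitals mark CTGCGTCT on either strand.
cbp-1: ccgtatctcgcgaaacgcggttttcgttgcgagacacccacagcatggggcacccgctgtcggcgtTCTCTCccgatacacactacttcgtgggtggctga
C09E9.1: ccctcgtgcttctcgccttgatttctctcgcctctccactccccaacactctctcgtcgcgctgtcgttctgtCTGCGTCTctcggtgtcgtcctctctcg
hlh-11: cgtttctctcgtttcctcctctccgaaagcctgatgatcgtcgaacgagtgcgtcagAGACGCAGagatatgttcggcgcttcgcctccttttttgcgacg

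Within the window the summits were densest close upstream of the annotated starts. Most of the window is upstream by rule, so the upstream share and the median distance follow in part from it. The median summit was 272 bp upstream of the nearest qualifying start, with quartiles of 138.5 and 544.5 bp, and 577 of 607 (95.1%) were upstream. Within 300 bp upstream lay 308 peaks (50.7%). Per 100 bp of window there were 116 peaks from 200 to 101 bp upstream, 110 from 300 to 201 bp, 82 in the last 100 bp, 53.5 from 500 to 301 bp, 32.4 from 1000 to 501 bp, and 14.9 from the start to 200 bp downstream. The density was therefore highest between 300 and 101 bp upstream and lowest past the start. In the 2103 peaks of highest signal of each replicate, called top lists here, the same rule found 592 peaks in replicate 1 and 598 in replicate 2 (595 ± 4.24, SD, n = 2), with medians 282 and 276 bp upstream (279 ± 4.24).

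**Figure D1:**
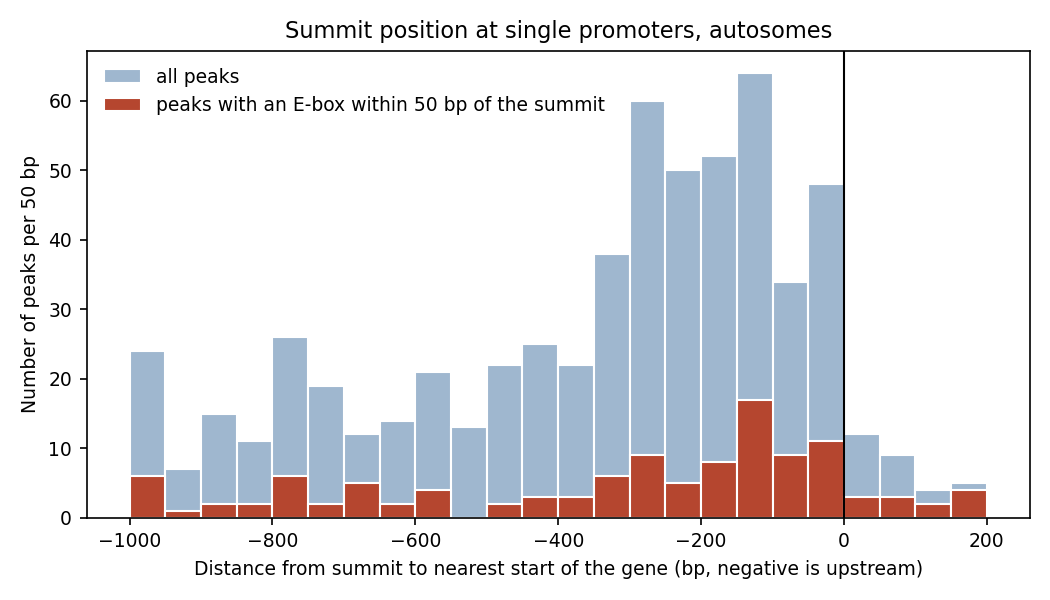
Number of autosomal single-promoter peaks (y axis) in bins of 50 bp of distance from the summit to the nearest qualifying transcript start (x axis, bp, negative upstream), for all 607 peaks and for the 115 with an E-box. The bars are tallest within 300 bp upstream, where 308 of the summits lie, and low past the start.

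Most summits were between protein-coding genes, 420 of 607 (69.2%). Introns held 144 (23.7%), untranslated exons 35 (5.77%) and coding exons 8 (1.32%). The gene's own span contained 154 summits (25.4%), and 33 (5.44%) lay in another gene only. An example of the latter was the peak of met-1, a histone methyltransferase gene, whose summit lay in an intron of C43E11.12. For 480 peaks (79.1%) the window was that of the outermost start of the gene. The other 127 (20.9%) were placed only by a start inside the gene, a median of 3028 bp downstream of the outermost start and up to 32105 bp. These internal peaks had a median pooled signal of 53.3 against 53.5 at outermost starts, and held CACGTG in 26.8% (34 peaks) against 16.9% (81 peaks); the difference was not tested.

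The edges of the window passed through a continuous range of peaks. Just inside the upstream limit were mstr-1 at 1000 bp (pooled signal 83.5), atgl-1 at 999 bp (37.8) and adah-1 at 998 bp (45.1). Just outside it were cec-1 at 1002 bp (35.6), F21F3.6 at 1006 bp (32.8) and algn-10 at 1007 bp (41.1). Downstream, E01G4.3 at 186 bp (48.0), T05C7.9 at 179 bp (33.4) and grl-26 at 175 bp (40.0) were inside, and ZK112.4 at 221 bp (47.7), ZK484.6 at 248 bp (39.8) and a peak of nhr-88 at 254 bp (43.3) were outside. The choice of limit thus decided whether such peaks, with signals from 32.8 to 83.5, were counted.

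Signal is the authors' value per peak, of unstated scale, and is comparable only within a list. The pooled signal of the 607 peaks had a median of 53.5, quartiles of 39.7 and 79.8, and a range of 32.5 to 456. The overlapping peaks had a median of 21.8 in replicate 1 (range 3.23 to 159) and 33.7 in replicate 2 (6.65 to 302). The highest pooled peak was at tos-1, whose name stands for target of splicing, at V:9344128-9344510, 105 bp upstream. Its signal was 456 in the pool, 154 in replicate 1 and 302 in replicate 2, ranks 16 and 13 of the replicate lists.

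The 20 strongest peaks are given by gene, ordered by the known role of the product after their values were seen, so the order marks no tested group. At cbp-1, the CBP/p300 histone acetyltransferase gene, the signal was 369 in the pool, 141 in replicate 1 and 230 in replicate 2, with the summit 856 bp upstream. At met-1 it was 343, 136 and 208 in the same order, 128 bp upstream. At hlh-11, which encodes a basic helix-loop-helix protein, it was 343, 132 and 211, 490 bp upstream. All 3 were in the top lists of both replicates, and a weaker second peak of hlh-11 (pooled signal 66.5) overlaps the same replicate peaks. At drap-1, whose product is listed with a CBF/NF-Y domain, the signal was 289, 104 and 192. ntl-2, a gene of the CCR4-NOT family of mRNA regulators, had 223, 87.7 and 129. zfp-1, a zinc finger gene, had 212, 82.7 and 142 at one peak and 170, 88.3 and 86.4 at its other. ztf-7, also a zinc finger gene, had 205, 67.7 and 136. Replicate 2 exceeded replicate 1 in value at the highest peak of each of these genes, as its list did as a whole.

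The other strong peaks lay at genes of varied function. C09E9.1, listed as a 30S ribosomal protein S15, had a signal of 355 in the pool, 123 in replicate 1 and 233 in replicate 2, and the large-subunit ribosomal gene rpl-3 had 289, 114 and 177. rpl-35 had 216, 86.5 and 138. These summits lay 88, 279 and 449 bp upstream. cdc-48.1, the p97 segregase gene, had 271, 86.9 and 180, and lgg-2, an LC3-like autophagy gene, had 263, 88.8 and 178. unc-108, the Rab2 gene, had 272, 89.8 and 183, and vps-25, an ESCRT-II subunit gene, had 258, 86.7 and 172 with its summit 6 bp past an internal start. The rest of the 20 strongest were T28B11.1, listed with an F-box domain (322.5, 118 and 209), the serpentine receptor gene srh-2 (284, 114 and 169), Y39G10AR.11 (221, 62.1 and 157), F56C9.10 (213, 74.2 and 138) and dpsm-1 (211, 91.5 and 119). All 20 were in the top lists of both replicates, none ranked below 151 in replicate 1 or 121 in replicate 2, 18 were upstream and 6 stood at an internal start only.

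**Figure D2:**
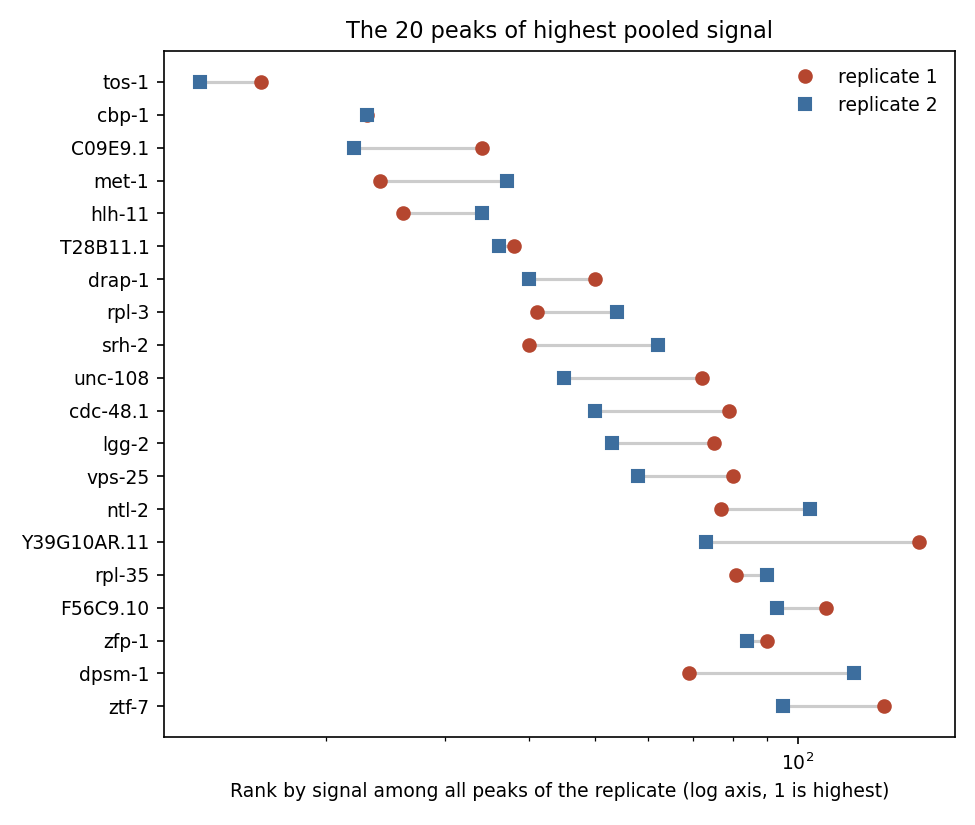
Rank of the 20 autosomal single-promoter peaks of highest pooled signal in each replicate's own list (x axis, log, 1 is the highest), by gene in order of pooled signal. Circles are replicate 1 and squares replicate 2, which coincide at cbp-1. Every peak ranks at 151 or better in replicate 1 and at 121 or better in replicate 2.

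Peaks of higher signal were more often in both top lists. Of the 607 peaks, 429 (70.7%, exact 95% interval 66.9 to 74.3%) overlapped a top-list peak of both replicates by at least 1 bp, beside 1448 of all 2103 IDR peaks (68.9%). A further 66 were in the top list of replicate 1 only, 103 in that of replicate 2 only, and 9 in neither, the highest of these at a pooled signal of 39.5. Split into 4 groups by pooled signal, the share in both top lists was 100% at 456 to 80.1, 94.1% at 79.5 to 53.5, 68.9% at 53.3 to 39.8 and 19.7% at 39.7 to 32.5. The lowest-signal peaks were thus rarely in both top lists. Pooled signal was made from both replicates, so this trend is a description. Across the 604 peaks with a peak in both relaxed lists, the rank correlation of signal was 0.635 between replicates, given without a test because peaks share their library.

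Only 3 peaks had no overlapping peak in the relaxed list of replicate 1, and each had one in replicate 2. They were at M117.1 (pooled signal 37.7, replicate 2 36.3), T28D6.5 (34.0 and 31.7) and asic-2 (32.8 and 22.2). The largest rank differences favoured either replicate. gdh-1, the glutamate dehydrogenase gene, had 21.6 in replicate 1 and 6.65 in replicate 2, and pck-2, a phosphoenolpyruvate carboxykinase gene, had 24.1 and 9.63. D2030.2 had 3.23 and 31.2, and atf-2, a bZIP gene, had 4.07 and 30.9. All 4 were low peaks in the pool, at 33.7, 35.7, 37.1 and 34.9 in the order named. In addition, 12 peaks of replicate 1 and 13 of replicate 2 each overlapped more than 1 of the 607, so that 24 and 26 of them share a replicate value.

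**Figure D3:**
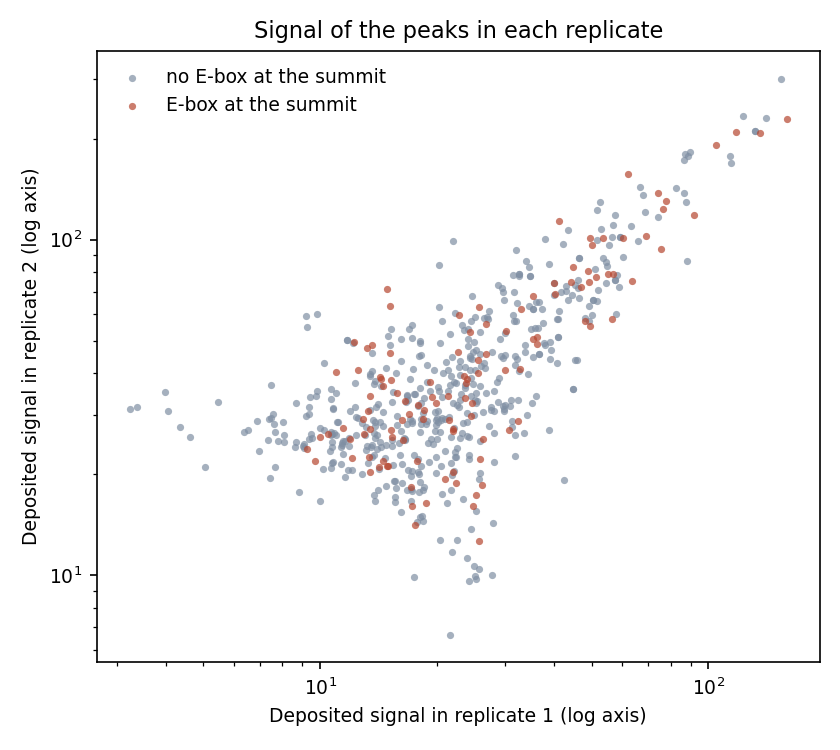
Signal of the overlapping peak in replicate 1 (x axis) and replicate 2 (y axis), both on log axes and in the authors' units, for the 604 peaks with both, coloured by whether an E-box lies within 50 bp of the summit. Both classes run along the same band, with more scatter at low signal.

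Genes shared by the replicate lists were counted next. The single-promoter rule gave 553 of 17242 autosomal protein-coding genes (3.21%) in the IDR list, 554 (3.21%) in the top list of replicate 1 and 549 (3.18%) in that of replicate 2. Replicates shared 390 genes, 70.4% of the first and 71.0% of the second, and 389 of these were in all 3 lists (70.3% of the IDR genes). These percentages of genes are the background for every gene group below. Gene lists below go by gene symbol, so a gene of the same kind under another symbol is not counted.

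The E-box stood at the summits more often than beside them. CACGTG lay within 50 bp of the summit, a window of 101 bp, at 115 of 607 peaks (18.9%, interval 15.9 to 22.3%). In windows of the same size 500 bp to either side it was found in 2.06%, and in the same length of sequence centred 272 bp upstream of all 17242 outermost starts in 275 (1.59%). In the peaks of each replicate's own top list the share was 16.4% ± 0.715 (SD, n = 2). The centre of the E-box was a median of 19.5 bp from the summit, and 60 of the 115 (52.2%) were within 20 bp. The 115 peaks had a median pooled signal of 58.3 (23.4 in replicate 1 and 38.4 in replicate 2) against 51.9 (21.4 and 32.7) for the other 492, and 77.4% against 69.1% were in both top lists. Among the 4 signal groups the share with CACGTG was 26.3% in the highest, 17.1% and 19.2% in the middle groups and 13.2% in the lowest.

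Another pair of words recurred at the summit, as in the cbp-1, C09E9.1 and hlh-11 stretches. GAGAGA, searched on both strands so that TCTCTC counts too, was at 199 peaks (32.8%, interval 29.1 to 36.7%), beside 4.53% of flanking windows and 5.98% of all promoters. CTGCGTCT, also on both strands, was at 97 (16.0%, interval 13.2 to 19.1%), beside 0.329% of flanks and 0.974% of promoters. In the replicate lists the shares were 31.2% ± 0.817 and 15.5% ± 0.841 (SD, n = 2). Matches of these words can share bases, as in C09E9.1, and did so in 22 of the 55 peaks that held both. GAGAGA was less frequent in peaks with CACGTG (25 of 115, 21.7%) than without it (174 of 492, 35.4%), as was CTGCGTCT (9.57% against 17.5%); these differences were not tested. Of all 607 peaks, 283 (46.6%) had none of the 3 words, and of the 20 strongest 6 had CACGTG, 9 had GAGAGA, 6 had CTGCGTCT and 5 had none.

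Other words gave a scale for these shares. GGGCGG was at 6.75% of summits, 2.39% of flanks and 2.17% of promoters. The word TGATAA, bound by the family of ELT-2, was at 9.06%, 8.65% and 10.2%. The bZIP word TGACTCA was at 0.824%, 0.988% and 1.00%. AATTAA, a homeodomain-like word, was rarer at summits, 3.95% against 16.1% and 19.1%. Base composition moved with these shares: the median GC content of the summit windows was 47.5%, that of flanks 35.6% and that of all promoter windows 33.7%. Its part in the shares was not tested.

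**Figure D4:**
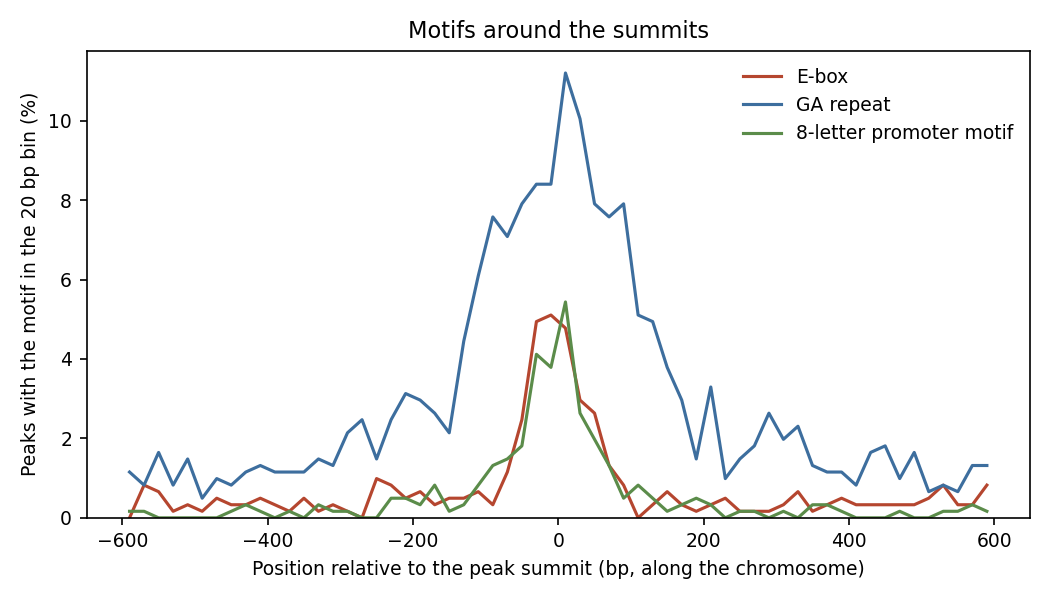
Percent of the 607 peaks with a match in each bin of 20 bp (y axis) against distance from the summit along the chromosome (x axis, bp). Lines are the E-box, the GA repeat and the word CTGCGTCT, which the key calls the 8-letter promoter motif, a name that was not tested. All 3 lines rise in the bins next to the summit, the GA repeat to 11.2%, the 8-letter motif to 5.44% and the E-box to 5.11%.

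The base next to the E-box was also recorded, with each site and its reverse complement merged. Among the 115 peaks, ACACGTGG was at 20 (17.4%) and ACACGTGA at 18 (15.7%), beside 19.9% and 10.4% of all 15263 autosomal CACGTG sites. GCACGTGC was at 8 (6.96%) beside 2.20% of sites, and CCACGTGG at 6 (5.22%) beside 18.3%. The counts are small and were not tested.

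Enzymes of central carbon metabolism had the largest share of single-promoter peaks among the gene lists of over 20 genes in the pool and in replicate 1. Of 35 glycolysis, gluconeogenesis and citric acid cycle genes, 8 carried such a peak (22.9%, interval 10.4 to 40.1%), beside 3.21% of all genes. Their 9 peaks had a median signal of 61.8 against 53.5 over all 607. The values below give 1 peak per gene, so this median includes a second peak of 1 gene that is not shown. The count of genes was 9 in replicate 1 and 5 (14.3%) in replicate 2, where autophagy was higher at 17.9%. At hxk-3, a hexokinase gene, the signal was 134 in the pool, 55.0 in replicate 1 and 79.1 in replicate 2. cts-1, the citrate synthase gene, had 112, 32.5 and 78.8, dld-1, dihydrolipoyl dehydrogenase, 76.6, 29.9 and 52.6, and fum-1, fumarate hydratase, 61.8, 19.7 and 40.8. The remaining members were pck-2, ldh-1, aldo-2 and ipgm-1, with pooled signals of 35.7, 35.6, 33.8 and 32.8. This list therefore runs from the highest of the 4 signal groups to the lowest. When summits at promoters shared with another gene were counted too, 11 of the 35 genes (31.4%) had a peak. Cytosolic ribosomal protein genes then stood higher, at 49.4%, so the first rank of this list holds for single-promoter peaks only.

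Among the lists ranked with central carbon metabolism, autophagy had the next single-promoter share in the pool. Of 28 autophagy genes 4 had a peak (14.3%, interval 4.03 to 32.7%; 4 and 5 in the replicates): lgg-2, atg-9 (129, 51.4 and 77.5), lgg-1 (117, 34.4 and 82.7) and epg-5 (37.3, 14.9 and 21.2). lgg-1 and lgg-2 encode the ubiquitin-like proteins of the autophagosome, and atg-9 its membrane scramblase. Vesicle trafficking genes had peaks at 10 of 105 (9.52%), among them vps-25, vps-60, sec-24.1 and arf-1. Ubiquitin pathway genes had 7 of 64 (10.9%), led by ubq-1, and V-ATPase and lysosome genes 5 of 47 (10.6%). The last list differed between replicates, with 1 gene in replicate 1 and 5 in replicate 2. When summits at promoters shared with another gene were counted too, autophagy stayed at 4 genes (14.3%). Vesicle trafficking then had 26 genes (24.8%), V-ATPase and lysosome 10 (21.3%) and the ubiquitin pathway 8 (12.5%). The rank of autophagy therefore holds for single-promoter peaks only.

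Most ribosomal protein genes with a peak had it in a window shared with another gene. Of 77 cytosolic ribosomal protein genes, 10 (13.0%, interval 6.41 to 22.6%) had a single-promoter peak, in replicates 10 and 9. Among them were rpl-14 (157, 53.6 and 101) and rps-4 (51.1, 22.4 and 22.5). When summits at promoters shared with another gene were counted too, 38 (49.4%) had a peak, beside 1056 (6.12%) of all autosomal genes counted in the same way. Splicing factors had 7 of 62 (11.3%; 16 with shared windows), including snr-4 and rsp-8, translation factors 3 of 40, respiratory chain genes 3 of 47 (12 with shared windows), and chaperones 3 of 61 (15 with shared windows). For none of 31 aminoacyl-tRNA synthetase genes was there a single-promoter peak (upper limit 11.2%).

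Transcription and chromatin genes were present in several families. The chromatin regulator list had peaks at 9 of 87 genes (10.3%, and 8 and 9 genes in the replicates), led by cbp-1 and met-1. With shared windows the count was 17. The 9 included the SWI/SNF subunit genes swsn-1, swsn-3 and swsn-7, and also wdr-23, listed as a DDB1- and CUL4-associated factor 11 homolog. The genes nurf-1, pbrm-1 and rbr-2, the last listed as a lysine-specific demethylase, also had peaks, but their symbols are not on the list. Of 29 genes on the basic helix-loop-helix list 3 had a peak: hlh-11, hif-1, the hypoxia-inducible factor gene (124, 46.3 and 71.6), and hlh-30, the TFEB-like gene (71.4, 24.0 and 54.2). None of these 3 genes had CACGTG at a summit. W06H8.6, listed with a basic helix-loop-helix domain, also had a peak (203, 66.6 and 143), but its symbol is not on the list. Of the 5 autosomal genes on the Myc and Mad network list, hlh-30 alone had such a peak, and mxl-1, mxl-2 and mml-1 had 0. Nuclear hormone receptor genes had 13 of 247 (5.26%), among them nhr-49 (78.5, 23.2 and 55.6), and other transcription factors 11 of 107 (10.3%), including daf-16. Homeobox genes had 2 of 68 and RNA polymerase, TAF and Mediator genes 2 of 70, shares of 2.94% and 2.86% that were near the 3.21% of all genes.

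Several large gene families had few or no peaks. There were 0 of 144 cuticle collagens (upper exact limit 2.53%), 0 of 106 neuropeptide genes (3.42%), 0 of 237 C-type lectins (1.54%) and 0 of 67 cytochrome P450 genes (5.36%). The limits of neuropeptide and P450 genes lie above the 3.21% of all genes, so these counts do not set them apart from it. In a single replicate's top list, collagens had 1 gene in replicate 2 and P450 genes 1 in replicate 1. Chemoreceptor-type symbols had 5 of 1331 (0.376%, interval 0.122 to 0.874%), 1 of which, srdh-1, is listed as an L-serine deaminase. D2023.1, listed as a serpentine receptor of class T, had a peak (pooled signal 167) but lacks such a symbol. The symbols fbxa, fbxb and fbxc had 1 of 305. F-box genes are not all named so: of 466 autosomal genes with F-box in the product, a word added after the values were seen, 11 (2.36%) had a peak, among them T28B11.1, lin-23 (pooled signal 191) and fbxl-1 (156). Among tissue marker lists, germline had 0 of 88 (upper limit 4.11%, and 3 genes with shared windows), hypodermis 0 of 25 (13.7%) and intestine 0 of 10 (30.8%). These limits too lie above 3.21%. Neuron markers had 3 of 11 (27.3%, interval 6.02 to 61.0%), rgef-1 (88.5, 31.9 and 57.4), egl-21 (58.1, 12.1 and 49.1) and rab-3 (55.6, 16.1 and 43.4). Body wall muscle had 1 of 14, unc-112. Over all 37 lists, 138 peaks (22.7%) were at 127 listed genes, and 3862 (22.4%) of autosomal genes were listed.

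**Figure D5:**
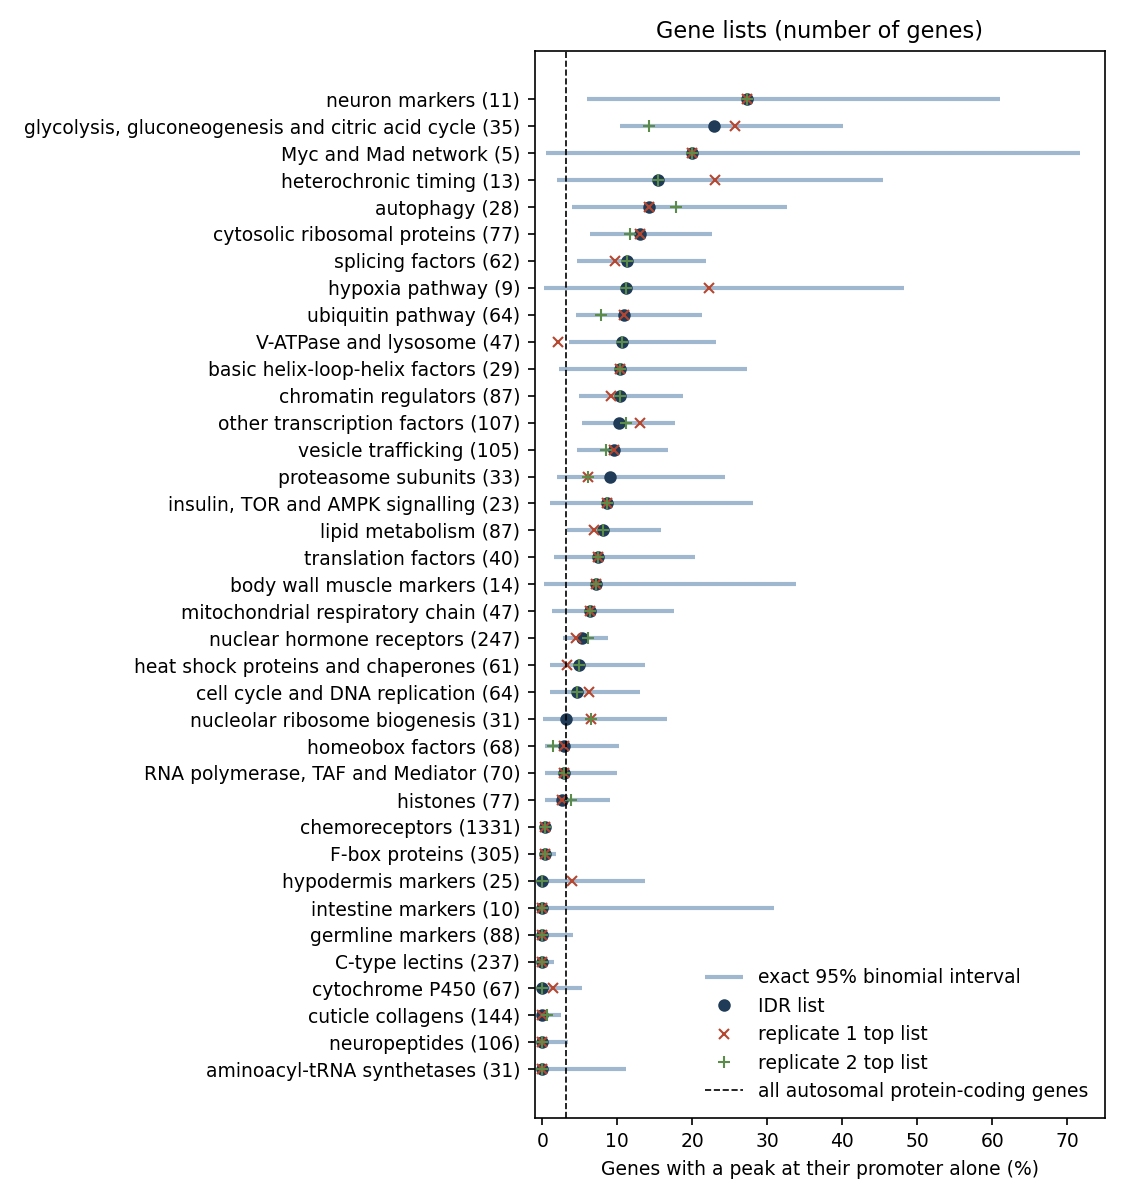
Percent of the autosomal genes of each list with a single-promoter peak, with exact 95% intervals as bars, the IDR list as dots, the replicate top lists as crosses and plus signs, and the share of all autosomal protein-coding genes (3.21%) as a dashed line. Neuron markers, a list of 11 genes with a wide interval, stand highest at 27.3%. Central carbon metabolism stands at 22.9%, and genes with chemoreceptor or fbxa, fbxb or fbxc symbols, collagens and lectins at or near 0.

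The peaks were compared with 3 other classes of the same list, without a test. Peaks on X at a single promoter numbered 225, peaks at promoters shared by 2 or more genes 270, and peaks outside promoter windows 1001. Median pooled signals were 53.0, 51.3 and 50.8 against 53.5, and the shares in both top lists 69.8%, 67.8% and 67.8% against 70.7%. Signal and replicate overlap thus lay within 3 units and 3 percentage points of each other. The single highest values were elsewhere, at 986 on X, 787 outside promoter windows and 615 at shared promoters, against 456. Of the 100 highest peaks, 20 were autosomal single-promoter peaks, a class that makes up 28.9% of the list. Outside promoter windows lay 51 (47.6% of the list), on X at a single promoter 16 (10.7%) and at shared promoters 13 (12.8%). CTGCGTCT was at 7.11% of the X peaks (interval 4.12 to 11.3%), with 7.91% and 6.61% in the replicate lists against 14.9% and 16.1% in autosomal ones. At shared promoters CTGCGTCT was at 10.7% and outside promoter windows at 11.4%. GAGAGA was at 28.9% on X, 23.7% at shared promoters and 34.9% outside, against 32.8%. CACGTG was at 16.9% on X, 18.5% outside promoter windows and 8.52% at shared promoters (interval 5.48 to 12.5%; replicates 8.23% ± 0.634, SD, n = 2). In the replicate lists the gap in CTGCGTCT to X, and that in CACGTG to shared promoters, were larger than the spread between replicates.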

How the data were processed

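The assay was eGFP ChIP-seq on L2 larvae, with 2 biological replicates of 1 group. Per the file headers, the authors deposited narrowPeak lists in build ce11: a relaxed list per replicate and for the pool, and the optimal IDR list. The deposited signal per peak has no stated scaling, the deposited −log10 q-value was at a ceiling of 3.48 for 431 of the 607 peaks and was used only as a minimum of 2 in an alternative, and the summit offset is given per peak by the authors. For the aligner, peak caller, IDR threshold and depth, details were not given in the sources used here.

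Starts came from Ensembl release 115 on WBcel235, sequence and products from RefSeq. A replicate value is that of the highest-signal overlapping peak (at least 1 bp). Shares carry exact (Clopper-Pearson) 95% intervals, which cover counting error over peaks or genes only. Peaks and genes are not replicates, so no test was made. Motifs were searched on both strands. The gene lists, motifs and peaks were chosen with earlier results of these data known. Named genes were those of the 20 highest peaks, up to 4 per list, the 5 largest rank differences each way, those at the window edges, the 3 lowest and the gene with most peaks; others, such as those shown for their sequence, were chosen after values were seen. Selection and overlap were tested on simulated data. The software was Python 3.11.15 with scipy 1.17.1, pandas 2.3.3, numpy 2.4.6 and, for plots, matplotlib 3.10.9.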

Additional observations from a re-analysis of the deposited data

How the results depend on the processing

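Of 48 alternative values for 8 results, 18 stayed within the limit set for them and 30 moved. The limit was a ratio of 1.5 for the 2 results that are counts, the 95% interval of the median for signal, and the SD of the replicates for the others. The number of peaks, 607, was 508 and 693 with the narrower and wider windows and 497 with outermost starts only, all past the replicate SD of 4.24, and the 138 peaks at listed genes became 123 with the narrower window. The number of peaks became 1362 with the pooled relaxed list cut at a −log10 q-value of 2 and 142 with the 500 highest-signal IDR peaks. That subset also gave 100% in both top lists, a median summit of -336.5 bp, 25.4% with CACGTG, 43.0% with GAGAGA, 40 peaks at listed genes and 3.90% of ribosomal protein genes. The share in both top lists was 57.2% when overlap had to cover at least 50% of both peaks, 65.1% for summits within 100 bp, 99.5% against all relaxed peaks, and 81.5 to 87.6% against 1 replicate alone. A window of 500 bp upstream to 100 bp downstream gave a median of -199 bp, CACGTG 16.5%, GAGAGA 30.5% and ribosomal protein genes 19.5%. A window from 2000 bp upstream gave a median of -574 bp. By construction the median follows the window. Peaks in both top lists had a median signal of 64.5. Searching within 100 bp gave CACGTG 24.2% and GAGAGA 49.8%, and within 25 bp 10.5% and 18.9%. Counting shared windows put ribosomal protein genes at 49.4%. With each replicate's list alone, medians were -282 to -276 bp, CACGTG 15.9 to 16.9%, GAGAGA 30.6 to 31.8% and ribosomal protein genes 11.7 to 13.0%. Where construction does not show it, the cause was not tested. No paired analysis was possible because the series has 1 group. With 2 replicates and unknown depth, low peaks present in 1 replicate only cannot be told apart from peaks missed for depth.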

Other observations

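The 4 genes with 3 single-promoter peaks each were gsa-1, kin-1, din-1 and M01H9.3. gsa-1 encodes the stimulatory G protein alpha subunit and kin-1 the catalytic subunit of the cAMP-dependent protein kinase. The pooled signals at gsa-1 were 83.5, 66.5 and 34.7, and at kin-1 75.9, 69.6 and 40.2. At din-1, which encodes a DAF-12-interacting corepressor, they were 180, 103 and 40.4. At gsa-1, 2 of the pooled peaks overlap the same peak in each replicate (36.6 and 45.5), so they are not separate there.

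Genes were also grouped by words in the RefSeq product into 12 classes. Their shares ran from 1.24% (ion channel or receptor) to 11.7% (mitochondrial), with ubiquitin at 11.1%. Mitochondrial products had peaks at 25 of 214 genes (interval 7.70 to 16.8%, replicates 10.3% and 9.81%). Of these 25, cts-1, dld-1, fum-1 and cox-5A were already counted in lists above. Among them were cox-5A, a cytochrome c oxidase subunit gene (155, 56.3 and 102 in the pool, replicate 1 and replicate 2), acs-2, an acyl-CoA ligase gene (131, 57.5 and 76.0), and let-721, ivd-1 and dbt-1, which act in fatty acid or branched-chain amino acid breakdown.

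Lists not described above were lipid metabolism with 7 of 87 genes, proteasome subunits with 3 of 33, cell cycle and DNA replication with 3 of 64, insulin, TOR and AMPK signalling with 2 of 23, heterochronic timing with 2 of 13 (lin-66 and lin-28), histones with 2 of 77, nucleolar ribosome biogenesis with 1 of 31 and the hypoxia pathway with 1 of 9. Of the histone genes, his-37 has near-identical copies, so its peak is uncertain.

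Small RNA genes started within 200 bp of a few summits, a count not made for other peaks and so given without a background. There were 13 peaks near snoRNA, 7 near snRNA, 5 near tRNA and 1 near miRNA starts. Their median pooled signals were 50.7 near snoRNA, 94.1 near snRNA and 40.0 near tRNA genes, and 9 of 13, 7 of 7 and 1 of 5 were in both top lists. Of the 7 near snRNA genes, 2 were at H41C03.3 and 2 at egg-5, and the peaks of each of these pairs share a replicate 2 value (99.2 and 88.4). Chromosome III held 121 of the 607 peaks (19.9%) and 15.3% of autosomal genes, and chromosome V 127 (20.9%) and 29.0%. The middle of each chromosome, from 25 to 75% of its length, held 398 (65.6%; replicates 64.9% and 65.9%), beside 55.7% of genes.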
